A study of Mus musculus with 4 samples.

Results

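The genes described here encode proteins that fold, check, export or destroy proteins in the endoplasmic reticulum (ER). They were chosen by annotation and not by any measured value: their KEGG pathway identifiers include mmu04141, protein processing in the ER, and none of those for cell cycle, ubiquitin-mediated proteolysis or MAP kinase signalling. In the table of Rela knockout and wild-type cells the rule kept 90 of 2687 genes with a KEGG pathway, holding 99 of 28445 regions, and left out 18 of 108 genes with mmu04141. Promoter regions, those centred no more than 2500 bp from their gene's start, numbered 93 and covered all 90 genes. Capn2 and Dnaja2, at 2443 and 2423 bp, had the regions just inside this distance, and Stt3b and Capn2, at 2738 and 2798 bp, those just outside. In the Kindlin-2 table, matched by gene name, 40 of these genes had 1 promoter region each among 5727 regions.

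Chromatin accessibility was measured by ATAC-seq: a transposase, Tn5, places sequencing adapters where DNA is free of nucleosomes. Fibroblasts from mouse kidney carried floxed Kindlin-2 alleles or lacked Kindlin-2, an adaptor that helps to activate integrins, and embryo fibroblasts of the 3T3 line were wild type for Rela or lacked Rela, the p65 subunit of NF-kB. All 4 cultures were at passages 15 to 20 in medium with calf serum and untreated as far as the labels say, and 50000 cells entered each library. The sources used here do not say how the genes were deleted, or whether a culture was 1 clone. The design text names 2 biological replicates per genotype, but each genotype had 1 column of values, so no difference between genotypes could be tested and no p-value is given.

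The values are the authors' background-corrected, normalized signal, in whole numbers. The median region of the Rela table had 34 in wild-type and 35 in knockout cells, and that of the Kindlin-2 data had 16 in both genotypes. Nuclear chromosomes held all of the signal in the Rela table, but only 134996 of 1655317 in floxed and 114217 of 827408 in knockout cells in the Kindlin-2 table, the rest lying on mitochondrial DNA. The promoter regions described here were stronger in the Rela table, with medians of 66 and 65, and of ordinary strength in the Kindlin-2 table, with 19 and 18. The Rela promoter itself had signals of 21 (wild type) and 27 (knockout), and 0 regions were assigned to the Kindlin-2 gene Fermt2, so neither deletion could be checked. Of 10 fibroblast markers, 6 had a promoter region in the Rela table, with signals of 12 to 110 in wild-type and 8 to 133 in knockout cells. Of 6 epithelial markers 2 had one (Krt19 and Cdh16, summing to 10 in wild-type and 26 in knockout cells), as did 1 of 3 leukocyte markers (Cd68, 14 and 12) and 0 of 3 endothelial markers. Whether these differences in fibroblast and epithelial markers play a part in the results was not tested. None of the 22 markers had a promoter region in the Kindlin-2 table, so the labelled cell type could not be checked there.

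Proteins enter the ER through the Sec61 channel, receive N-glycans, and fold with the help of chaperones such as BiP and of enzymes that form disulfide bonds. COPII vesicles carry folded proteins to the Golgi, and misfolded ones are pulled back to the cytosol and degraded by the proteasome. When unfolded proteins build up, the sensors IRE1, PERK and ATF6 start the unfolded protein response, which raises transcription of many of these same genes. Fibroblasts secrete collagen and other matrix proteins in bulk and depend on this machinery.

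Some of the promoters, 8 of the 79 with a sequence, carry a known sequence mark of that response, which is shown first. The rule did not use sequence, but that response raises many of these same genes, so the mark is not independent of the annotation. The ER stress response element (ERSE) is CCAAT and CCACG with 9 bases between them, the first part bound by NF-Y and the second by ATF6 or XBP1 in stressed cells. RefSeq promoter windows (GRCm38.p6, the assembly also called mm10), running from 250 bases before the start of a gene to 50 after it, matched 79 of the 90 genes, 1 by an older symbol. The 19-base ERSE was in 6 of these 79 windows (7.59%), against 39 of all 32851 windows (0.119%). Among windows that met any region of the Rela table it was in 5 of 74 of these genes (6.76%), against 14 of all 7349 (0.191%). Both strands were searched. The 6 elements are printed in the direction of the gene with 15 bases on either side and the ERSE in capitals, and in Calr and Ero1b it lies on the opposite strand.
Hspa5: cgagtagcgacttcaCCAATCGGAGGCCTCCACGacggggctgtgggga
Calr: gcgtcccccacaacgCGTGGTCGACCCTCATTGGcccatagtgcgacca
Canx: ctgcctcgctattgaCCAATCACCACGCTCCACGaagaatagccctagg
Dnajc3: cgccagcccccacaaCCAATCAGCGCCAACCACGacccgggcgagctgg
Ero1b: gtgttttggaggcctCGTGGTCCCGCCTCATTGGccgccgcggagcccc
Pdia6: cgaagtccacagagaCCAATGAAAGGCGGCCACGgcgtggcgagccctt
These lie at chr2:34772010-34772058, plus strand, for Hspa5, chr8:84847060-84847108, minus strand, for Calr, chr11:50325785-50325833, minus strand, for Canx, chr14:118937812-118937860, plus strand, for Dnajc3, chr13:12565667-12565715, plus strand, for Ero1b, and chr12:17266476-17266524, plus strand, for Pdia6.

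A shorter form, ERSE-II, is ATTGG and CCACG with 1 base between them, and the core of the unfolded protein response element (UPRE) is TGACGTGG, whose last 5 bases are CCACG on the other strand. ERSE-II was in 2 of 79 windows (2.53%), those of Herpud1 and Dnajb11, against 0.0680% of all windows that met a Rela region. The UPRE core was in 4 windows (5.06%), those of Txndc5, Sec24d, Vcp and Sec23a, against 0.912%. The Herpud1 ERSE-II and 3 UPRE cores that lie before the start are printed in the same way.
Herpud1: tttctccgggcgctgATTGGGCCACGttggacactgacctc
Txndc5: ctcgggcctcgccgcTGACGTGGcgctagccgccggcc
Sec24d: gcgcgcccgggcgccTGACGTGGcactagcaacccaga
Vcp: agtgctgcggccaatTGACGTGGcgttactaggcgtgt
They lie at chr8:94386362-94386402, plus strand, for Herpud1, chr13:38528030-38528067, minus strand, for Txndc5, chr3:123267455-123267492, plus strand, for Sec24d, and chr4:43000599-43000636, minus strand, for Vcp. The deposited Rela regions covered 5 of the 6 ERSEs, both ERSE-IIs and all 4 UPRE cores, so these elements lay in accessible chromatin of the 3T3 cells. The exception was Hspa5, whose 1 region ended before its promoter window began.

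Of the other motifs searched, the CCAAT box alone was in 46 windows (58.2%, against 44.8% of windows that met a Rela region) and CCACG alone in 50 (63.3% against 50.3%), and both counts include the full elements. The C/EBP-ATF element TGATGNAAT was in 0 windows (against 0.259%), as was the cyclic AMP element TGACGTCA (against 3.70%). The NF-kB consensus was in 7 windows (8.86% against 10.2%), those of Calr, Edem1, Eif2ak4, Ero1a, Ero1b, Ngly1 and Uggt2. These shares, and those of ERSE-II and the UPRE core, are over all 79 windows, of which 74 met a Rela region. Over the 74 they were 2.70% for ERSE-II, 5.41% for the UPRE core, 59.5% for CCAAT, 63.5% for CCACG and 9.46% for NF-kB. A match in these letters is a description and does not show that a factor binds. The 79 windows had a median of 24 CpG dinucleotides and 64.7% G and C. The medians were 23 and 62.3% in all windows that met a Rela region and 7 and 52.7% in all windows.

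Most promoters of these genes differed by less than 2-fold between Rela knockout and wild-type cells. A region was called higher or lower at 2-fold or more, that is, at a log2 ratio of at least 1 in size, taken as log2((knockout + 1)/(control + 1)). Of 93 promoter regions 5 were higher and 9 lower, and 79 lay within 2-fold, 63 of them within 1.5-fold. The shares of 5.38% and 9.68% stand beside 22.4% higher and 21.0% lower among all 28332 regions with a mean signal of at least 1, 13.0% and 13.1% among all 8061 promoter regions, and 10.8% and 11.4% among the 2537 promoter regions of genes with a KEGG pathway. The share lower was thus near the background of KEGG genes and the share higher was below it, without a test. The regions were also stronger, with a median signal of 69 against 58 in promoters of KEGG genes, and weaker regions have wider counting intervals. The median log2 ratio was -0.06 (quartiles -0.46 and 0.38), against -0.01 in promoters of KEGG genes and 0.00 in all regions.

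**Figure D1:**
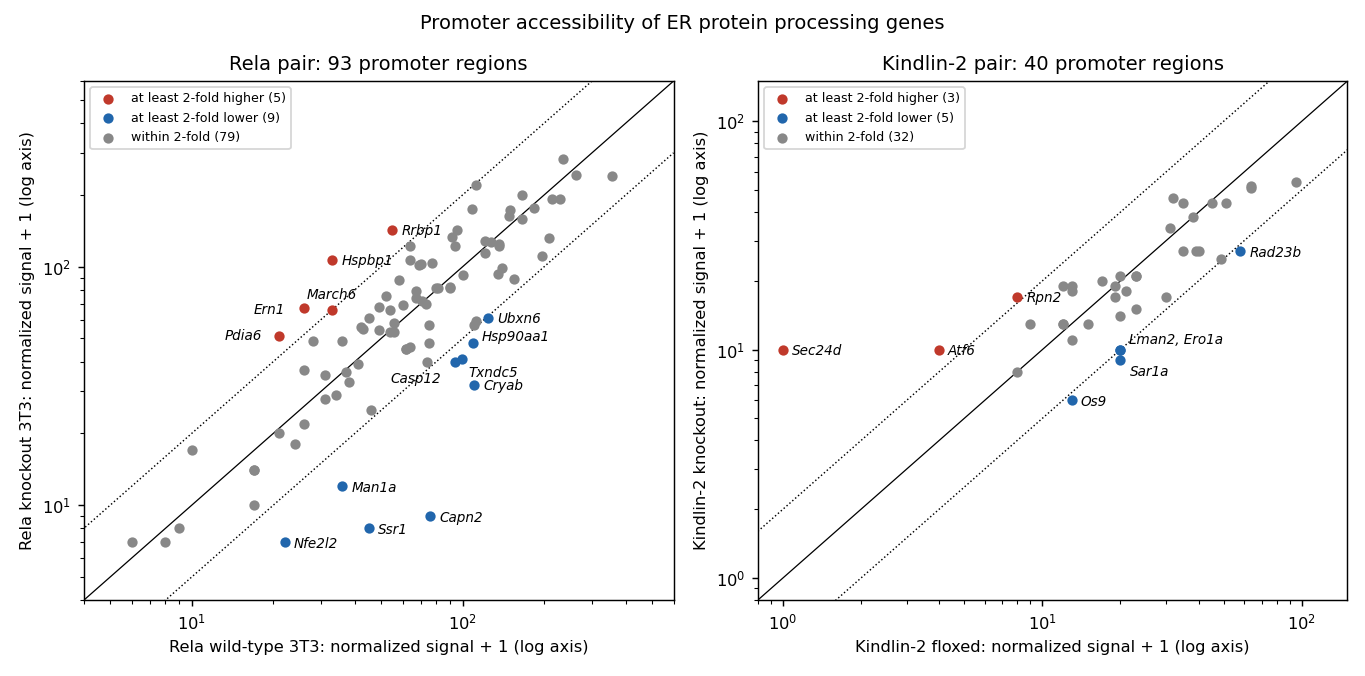
Normalized signal plus 1 of each promoter region in the control (x axis) and the knockout (y axis), on log axes, for the Rela pair (left) and the Kindlin-2 pair (right). Solid lines mark equal signal and dotted lines a 2-fold difference. In the Rela pair 79 of 93 points lie between the dotted lines, and in the Kindlin-2 pair 32 of 40.

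In the text that follows, 2 signals in brackets are those of the control and then the knockout, and an interval is a 95% interval (exact, Clopper-Pearson) for counting error alone, from the depth that the values imply. It does not cover differences between cultures. For each of the 14 Rela promoter regions past 2-fold this interval left out 1, and for Hspbp1, Capn2, Ssr1 and Cryab it lay wholly beyond 2-fold. It also left out 1 for 26 of the 79 Rela regions within 2-fold, so a region within 2-fold is not thereby unchanged. Counts by role in the Rela pair stand beside the 10.8% higher and 11.4% lower among promoter regions of genes with a KEGG pathway. A role holds 4 to 22 promoter regions, too few to set it apart from that background.

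Among 8 promoters for entry into the ER, 1 was higher and 1 lower. Ssr1 encodes the alpha subunit of the TRAP complex, which sits beside the Sec61 channel. Its promoter had a signal of 44 with Rela and 7 without, 6.29-fold lower (interval 3.02 to 17.0). The Ssr1 log2 ratio of -2.49 became -1.71 once the median of chromosome 13, -0.79 over all its regions, was taken out. Rrbp1, a ribosome-binding protein of the rough ER, was 2.63-fold higher (54 and 142, interval 2.00 to 3.51). Channel subunits Sec61b (93 and 121) and Sec61g (51 and 74), the partners Sec62 (69 and 102) and Sec63 (16 and 13), the TRAP subunit Ssr3 (48 and 53) and Ckap4, which shapes ER sheets (139 and 98), were within 2-fold. The stretch of 250 bases before the Ssr1 start (chr13:37994209-37994458, minus strand) is printed because its ratio was the lowest after that of Capn2, with each CCACG in capitals.
Ssr1: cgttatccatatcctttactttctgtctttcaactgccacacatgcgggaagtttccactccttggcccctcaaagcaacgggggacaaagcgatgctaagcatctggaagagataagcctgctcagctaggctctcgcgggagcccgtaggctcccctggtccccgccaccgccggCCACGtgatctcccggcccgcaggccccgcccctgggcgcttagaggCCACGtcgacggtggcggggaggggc

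Promoters for N-glycan transfer were level between the genotypes. The oligosaccharyltransferase genes Stt3a (262 and 241) and Stt3b (212 and 192), which encode its catalytic subunits, and Dad1 (120 and 113), Rpn2 (72 and 69) and Ddost (44 and 60) all had log2 ratios between -0.14 and 0.44. Stt3a was the strongest of the 5 in both genotypes.

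Of 8 promoters for glycan trimming and the lectin chaperones, 1 was lower and 0 higher. Man1a, which encodes a mannosidase that trims N-glycans, held 35 and 11, 3.18-fold lower (interval 1.61 to 6.30). The lectin chaperone genes Canx (63 and 121, ratio 1.92, interval 1.47 to 2.56) and Calr (57 and 87, ratio 1.53, interval 1.13 to 2.10) were below the 2-fold threshold. Glucosidase genes Mogs (16 and 13) and Ganab (61 and 44), the folding sensors Uggt1 (63 and 45) and Uggt2 (55 and 57), and the mannosidase gene Man1c1 (36 and 35) had log2 ratios from -0.48 to 0.05.

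Among 15 promoters of the lumenal chaperone and disulfide list, 1 was higher and 1 lower, both of genes for protein disulfide isomerases. Pdia6 was 2.5-fold higher in the knockout (20 and 50, interval 1.59 to 4.14). Txndc5 was 2.45-fold lower (98 and 40, interval 1.73 to 3.54). The Txndc5 log2 ratio of -1.27 became -0.49 once chromosome 13 was centred, so its call depends on that scaling. Other isomerase genes, Pdia4 (195 and 110, log2 ratio -0.82) and P4hb (99 and 91), and the oxidase genes Ero1a (154 and 88, log2 ratio -0.80) and Ero1b (53 and 52) were within 2-fold. Of chaperone genes, Hyou1 held 45 and 24 (log2 ratio -0.88), and the co-chaperone genes Dnajb11 (135 and 121), Dnajc3 (228 and 191), Dnajc10 (74 and 56) and Dnajc1 (94 and 141) lay between -0.40 and 0.58. The 1 region of Hspa5, which encodes BiP, was centred 1578 bp from the start and held 30 and 34. Its level says nothing of the Hspa5 window with the ERSE, which met no region analysed here. The remaining 3 promoters of this list, Erp29 (53 and 65) and, for cytosolic J-proteins, Dnajc5 (61 and 44) and Dnajc5b (63 and 106), were also within 2-fold. The 250 bases before the starts of Pdia6 (chr12:17266339-17266588, plus strand, ERSE in capitals) and Txndc5 (chr13:38527915-38528164, minus strand, UPRE core in capitals) are printed since these 2 isomerase promoters went opposite ways.
Pdia6: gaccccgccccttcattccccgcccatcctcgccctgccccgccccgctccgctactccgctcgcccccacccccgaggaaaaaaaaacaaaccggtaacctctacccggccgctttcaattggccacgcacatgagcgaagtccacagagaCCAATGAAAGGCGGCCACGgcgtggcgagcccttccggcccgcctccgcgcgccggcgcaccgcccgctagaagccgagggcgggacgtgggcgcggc
Txndc5: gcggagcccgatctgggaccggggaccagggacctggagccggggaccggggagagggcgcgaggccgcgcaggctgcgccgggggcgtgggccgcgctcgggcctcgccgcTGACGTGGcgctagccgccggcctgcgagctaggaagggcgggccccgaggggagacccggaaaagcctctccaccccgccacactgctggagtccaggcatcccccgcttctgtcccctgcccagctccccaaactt

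The genes with an ERSE or ERSE-II were looked at together. For 7 of the 8, all but Hspa5, the region met the window with the element. Of these 7 in the Rela pair, Pdia6 was higher and 0 were lower. The log2 ratios of the rest were 0.93 for Canx, 0.81 for Herpud1 (27 and 48), 0.60 for Calr, -0.03 for Ero1b, -0.16 for Dnajb11 and -0.25 for Dnajc3. The values moved with the scaling of chromosomes. With chromosomes centred Calr was at -0.01, Herpud1 at 0.20, Canx at 0.74 and Ero1b at 0.76. The median of the 7 was 0.60 as deposited and 0.20 with chromosomes centred. The medians were -0.06 and 0.05 over the 70 promoter regions of genes with neither element whose window met a region. The 70 include far regions of Capn2, Nfe2l2 and Os9 that did not themselves meet the window. In the Kindlin-2 pair the median as deposited was -0.38 over the 4 regions of genes with either element and -0.13 over the 33 of genes with neither. Of the 4, only Dnajc3 had an interval that left out 1. Pdia6, Herpud1 and Dnajb11 had no Kindlin-2 region, and the 33 were not limited to regions that met a window. The pairs are thus not compared on like sets. Neither difference was tested.

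The 10 promoters of COPII coat and cargo receptor genes all lay within 2-fold, as did 79 of all 93 promoter regions. COPII coats form when the GTPase SAR1 recruits SEC23 and SEC24, and then SEC13 and SEC31. Sec23a (234 and 282) and Sec23b (126 and 126), the cargo-binding Sec24b (68 and 101), Sec24c (70 and 71) and Sec24d (66 and 78), the outer-coat gene Sec31a (134 and 92), and Sar1a (30 and 27) and Sar1b (5 and 6) had log2 ratios between -0.54 and 0.56. The cargo lectin genes Lman2 (80 and 80) and Lman1l (33 and 28) did too.

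Of 11 promoters of stress sensor and response genes, 1 was higher and 1 lower. Ern1 encodes IRE1 alpha, the sensor that splices Xbp1 mRNA. Its promoter was 2.64-fold higher in the knockout (25 and 66, interval 1.74 to 4.03). A region of Nfe2l2, which encodes the antioxidant factor NRF2, was 3.5-fold lower (21 and 6, interval 1.53 to 10.9), but it was weak and centred 1850 bp from the start. The main Nfe2l2 promoter region held 182 and 175, and both summed gave a log2 ratio of -0.16. The other sensor genes were within 2-fold, with Atf6b (109 and 56, log2 ratio -0.95) and Atf6 (16 and 9, -0.77) lower in value. The weak Atf6 region was centred 900 bp from the start, and its interval, 0.221 to 1.22, held 1. The 1 region of Eif2ak3, which encodes PERK, held 8 and 7, but it was centred 1179 bp from the start and did not meet the Eif2ak3 promoter window, so it does not give the level there. The regions of Dnaja2, Lman1l and Sec62 did not meet their windows either. Among the other kinases of eIF2 alpha, Eif2ak2, the sensor of double-stranded RNA, held 73 and 39 (log2 ratio -0.89), Eif2ak1 55 and 52, and Eif2ak4 59 and 68. Mbtps1, the protease that cleaves ATF6, held 40 and 38, and Wfs1 135 and 124. The Ern1 stretch before the start (chr11:106487797-106488046, minus strand) is printed because it was the 1 sensor promoter called higher, with CCACG in capitals.
Ern1: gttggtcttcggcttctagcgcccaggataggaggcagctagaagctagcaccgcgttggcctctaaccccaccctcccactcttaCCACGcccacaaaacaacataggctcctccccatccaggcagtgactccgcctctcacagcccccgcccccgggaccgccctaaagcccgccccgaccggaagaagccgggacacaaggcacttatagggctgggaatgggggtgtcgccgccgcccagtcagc

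**Figure D2:**
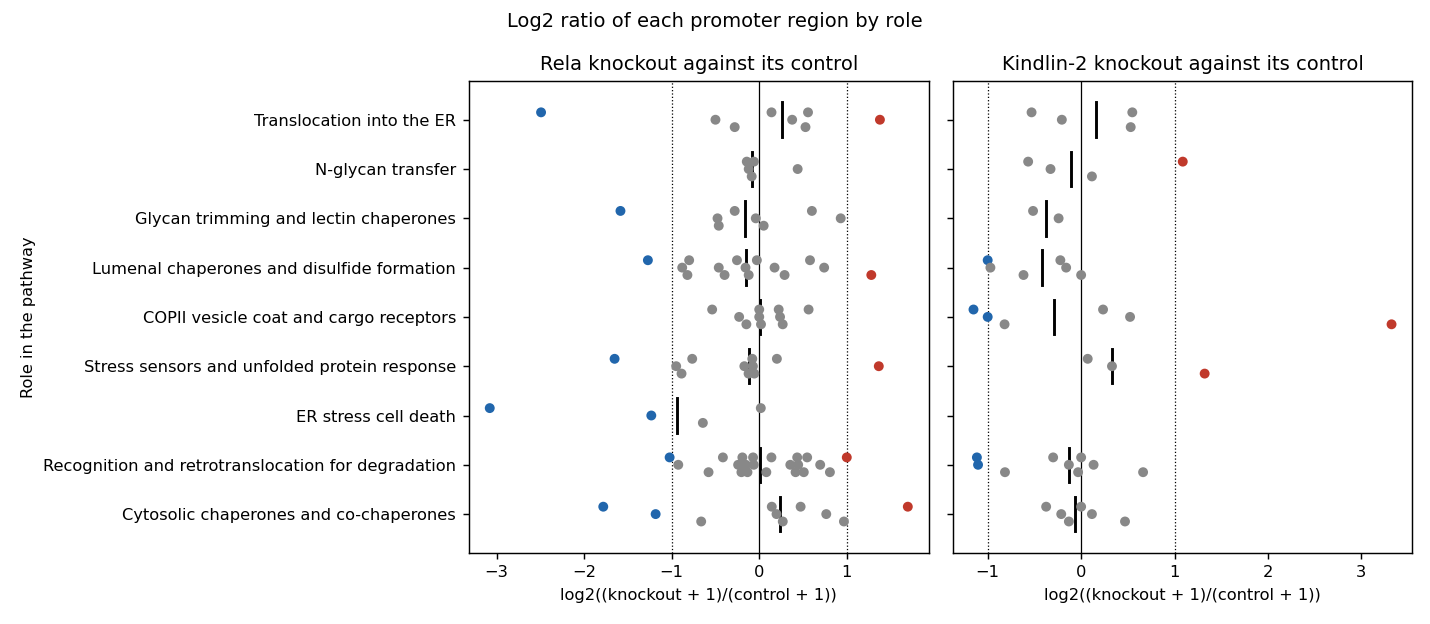
Log2 ratio of each promoter region (x axis, knockout over control with 1 added to each) by role in the pathway (y axis), for the Rela pair (left) and the Kindlin-2 pair (right). Black bars are medians, dotted lines mark 2-fold, red points are higher and blue points lower in the knockout. In the Rela pair 79 of all 93 points lie within 2-fold, among them the few COPII and N-glycan transfer points.

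Among 4 promoter regions of cell death genes tied to ER stress, 2 were lower and 0 higher. Casp12, a caspase of the ER membrane in mice, held 93 and 39, 2.38-fold lower (interval 1.67 to 3.47). The Casp12 log2 ratio of -1.23 was -0.99 after chromosome 9 was centred, just within 2-fold. A region of the calpain gene Capn2, inside the gene and 2443 bp from its start, was 9.38-fold lower (75 and 8, interval 4.85 to 23.5), the lowest ratio of all 93. The Capn2 region at the start had signals of 74 and 47, and with both summed the log2 ratio was -1.42. Bcl2, an inhibitor of apoptosis, held 79 and 80.

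Of 22 promoters for recognition, retrotranslocation and degradation, 1 was higher and 1 lower, and both sat at the threshold. March6, a ubiquitin ligase of the ER membrane, held 32 and 65 (ratio 2.03, interval 1.37 to 2.98), and its log2 ratio, exactly 1, was below 1 under 3 alternatives (0.92 to 0.97). Ubxn6, a cofactor of the VCP ATPase, was 2.05-fold lower (123 and 60, interval 1.54 to 2.79), with a log2 ratio of -1.02 that became -0.46 once chromosome 17 was centred. Vcp itself, which pulls substrates out of the membrane, held 89 and 81, and its cofactor genes Nsfl1c (89 and 80) and Plaa (76 and 103) were also within 2-fold. Rad23b, which delivers ubiquitinated proteins to the proteasome, held 111 and 58 (log2 ratio -0.92, and -1.10 with chromosomes centred).

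Genes that pick out misfolded glycoproteins were within 2-fold. Edem1 had the strongest promoter of all 93 in wild-type cells (356 and 238, log2 ratio -0.58), and Edem3 held 147 and 162. The lectin genes Os9 (25 and 21) and Erlec1 (23 and 17) were weaker. At the membrane, Sel1l (120 and 127), Derl1 (164 and 157), Selenos (42 and 54) and Herpud1 (27 and 48) had log2 ratios between -0.06 and 0.81. Downstream, the glycanase gene Ngly1 (90 and 132), the deubiquitinase genes Atxn3 (35 and 48) and Yod1 (107 and 174), the ubiquilin genes Ubqln1 (41 and 55) and Ubqln2 (37 and 32), and Fbxo6 (25 and 36) lay between -0.20 and 0.70. Ubqln1 alone of these passed 2-fold with chromosomes centred, its log2 ratio going from 0.42 to 1.20.

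Of 10 promoters of cytosolic chaperones and co-chaperones, 1 was higher and 2 were lower. Hspbp1, a nucleotide exchange factor of HSP70, had the highest ratio of all 93 regions (32 and 106, 3.31-fold higher, interval 2.34 to 4.76). Cryab, the small heat shock protein alpha-B crystallin, was 3.52-fold lower (109 and 31, interval 2.39 to 5.24). Hsp90aa1, the stress-inducible HSP90, was 2.30-fold lower (108 and 47, interval 1.65 to 3.19). The Hsp90aa1 region was centred 584 bp from the start and had 0% of its length inside the gene body. J-protein genes Dnajb1 (111 and 218, log2 ratio 0.97), Dnaja1 (149 and 171), Dnaja2 (9 and 16) and Dnajb2 (48 and 67) were within 2-fold, as were the HSP70 relatives Hsph1 (208 and 131, -0.66) and Hspa4l (165 and 199) and the cofactor Bag1 (66 and 73).

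**Figure D3:**
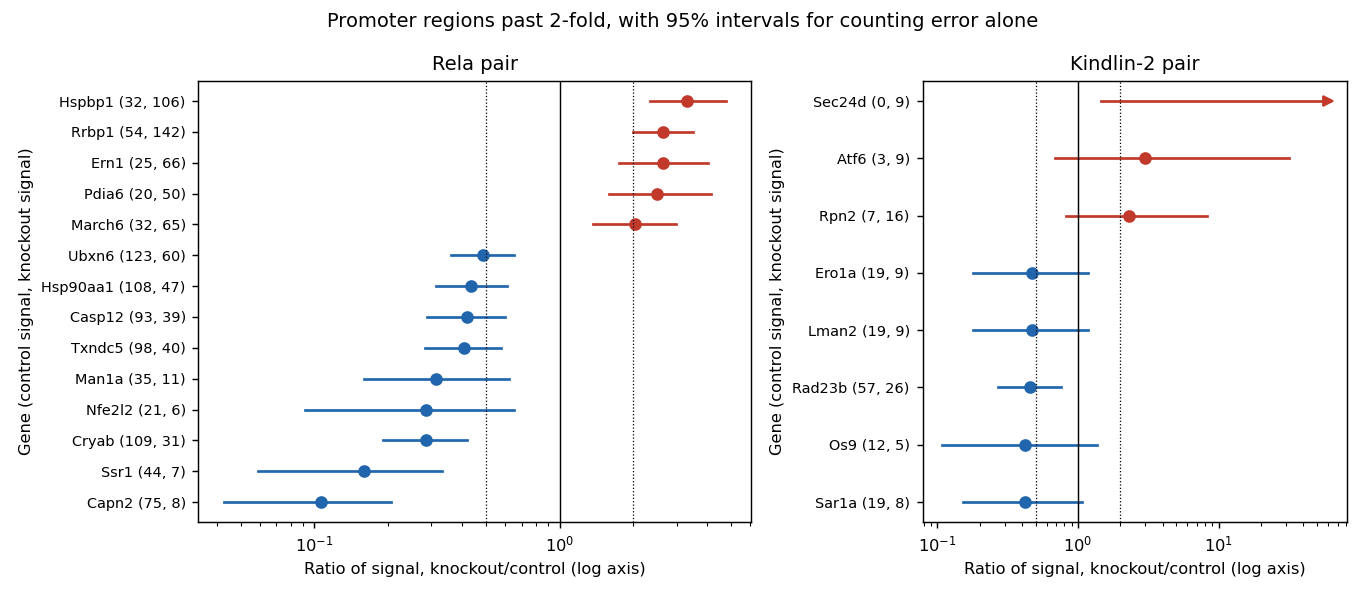
Ratio of knockout to control signal (points, log axis) for the 14 Rela and 8 Kindlin-2 promoter regions past 2-fold, with 95% intervals for counting error alone (lines) and both signals beside each gene. Dotted lines mark 2-fold, and the arrow marks an upper limit that has no bound. All 14 Rela intervals leave out 1, and 2 of the 8 Kindlin-2 intervals do.

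For 8 genes the Rela table held more than 1 region, 3 for Capn2 and 2 each for the other 7. The region nearest the start and the farther one often had different ratios. Sec23a held 6 and 35 at a region inside the gene, 3988 bp from its start (5.83-fold higher, interval 2.71 to 13.5), beside 234 and 282 at its promoter. Edem1 held 8 and 24 at 3746 bp (3-fold, interval 1.40 to 6.32), while its promoter was lower in value in the knockout. Stt3b held 30 and 7 at 2738 bp (4.29-fold lower, interval 2.02 to 11.9), beside a level promoter. Cryab was lower at both of its regions, with 24 and 6 at 4063 bp (4-fold, interval 1.75 to 12.2). The third Capn2 region, 2798 bp from the start, held 66 and 45, and the far Sec24b region held 15 and 26. Of the 6 regions beyond 2500 bp, 2 were higher and 2 lower. Their median signal was 19.5, so these ratios rest on fewer counts than those of promoters. Among all regions of the Rela pair 22.4% were higher and 21.0% lower, against 13.0% and 13.1% of promoter regions. No share was taken over regions beyond 2500 bp alone, so these calls are not read as a trait of these genes.

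**Figure D4:**
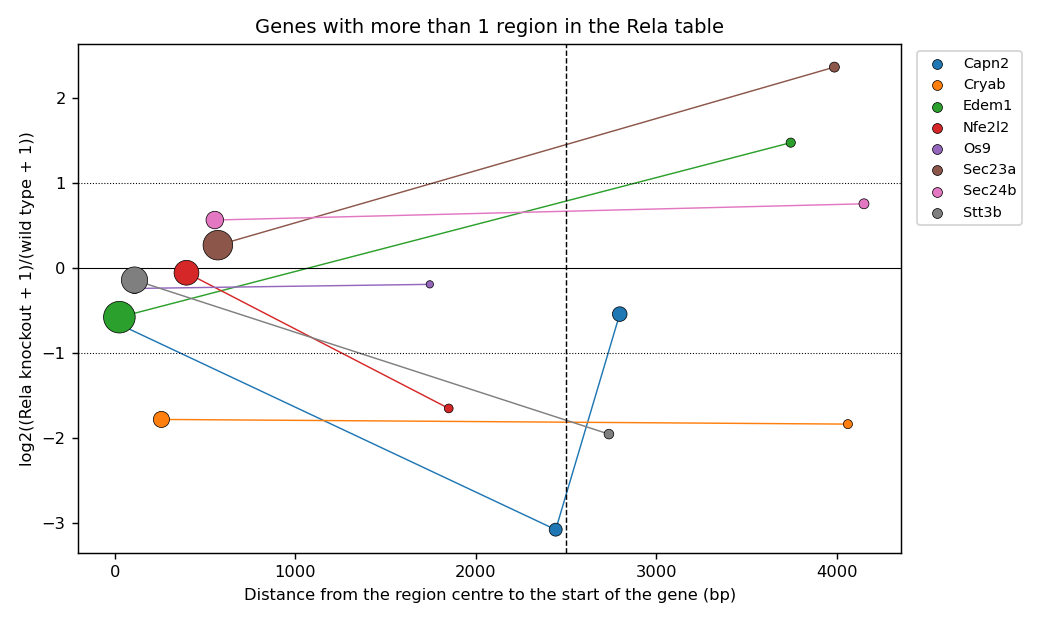
Log2 ratio in the Rela pair (y axis) against the distance of the region from the start of its gene (x axis, bp) for the 8 genes with more than 1 region, lines joining regions of a gene and point area growing with signal. The dashed line is the 2500 bp limit of promoter regions. Sec23a and Edem1 are past 2-fold higher only at their far regions, and Cryab is lower at both.

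A region can serve more than 1 gene. Of the 79 regions whose gene had a RefSeq window, 17 also covered the start of another gene, among them those of Bag1 (Chmp5), Dad1 (Abhd4), Ngly1 (Oxsm), Sec23a (Gemin2) and Yod1 (Pfkfb2). Those of Txndc5, Man1a and March6 covered the start of a gene with a Gm name, a predicted gene. In such regions the signal cannot be divided between the genes. Conversely, the Pdia3 window lay under a region assigned to Catsper2 (61 and 92 in the Rela pair), so a disulfide isomerase gene of this pathway was left out by the assignment. The windows of Hsp90b1, Atf4, Xbp1 and Ppp1r15a met no region analysed here in either table.

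In the Kindlin-2 pair 40 of the genes were measured, each at 1 promoter region that overlapped the one in the Rela table. Regions were narrower (median width 285.5 bp, against 593 bp for the same genes in the Rela table) and weaker. A median promoter rested on about 14.0 implied counts in floxed cells, against 96.6 in Rela wild-type cells over all 93 promoter regions. The Rela promoter regions of the same genes were stronger, with a median wild-type signal of 89 against 66 over all 93. Of the 40 Kindlin-2 regions, 3 were higher in the knockout and 5 lower, which is 7.5% and 12.5%. The background was 16.2% higher and 9.27% lower among all 5727 regions, 9.06% and 10.6% among 2671 promoter regions, and 7.42% and 11.7% among 822 promoter regions of genes with a KEGG pathway, so the shares were near those of comparable promoters. The median log2 ratio was -0.15, against -0.20 in promoters of KEGG genes. The split of 3 higher and 5 lower was 1 and 4 after quantile scaling and 0 and 4 after loess centring.

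For 36 of the 40 promoters the counting interval held 1. Rad23b, the proteasome shuttle gene, was the 1 promoter past 2-fold lower whose interval left out 1 (57 and 26, 2.19-fold lower, interval 1.32 to 3.74), and quantile and loess scaling brought it within 2-fold (log2 ratios -0.83 and -0.77). Sec24d, of the COPII coat, held 0 and 9. By the exact 95% limit it was at least 1.45-fold higher, and its log2 ratio fell to 0.14 after loess centring. The sensor gene Atf6 (3 and 9, interval 0.684 to 31.4) and the glycan transfer gene Rpn2 (7 and 16, interval 0.823 to 8.21) were higher, with intervals that reached below 1. Sar1a (19 and 8), Lman2 (19 and 9), Ero1a (19 and 9) and Os9 (12 and 5) were between 2.11-fold and 2.4-fold lower, and their intervals reached below 1 as well.

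The other Kindlin-2 promoters were within 2-fold. The strongest was Derl1, a channel component of retrotranslocation (94 and 53, log2 ratio -0.81), and its interval, 1.22-fold to 2.58-fold lower, left out 1. Edem1 held 63 and 51, Sel1l 44 and 43, and Vcp 22 and 20. Of folding genes, Canx held 12 and 10, Calr 19 and 13, Pdia4 22 and 14, and the co-chaperone gene Dnajc3 48 and 24 (log2 ratio -0.97). The Dnajc3 interval, 1.15-fold to 3.49-fold lower, also left out 1. Of coat genes, Sec23a held 31 and 45, Sec23b 16 and 19, and Sec31a 29 and 16. Wfs1 (34 and 43) and Eif2ak4 (19 and 20) were the other measured genes of the stress response, and the cytosolic chaperone genes Hsph1 (50 and 43), Dnajb1 (22 and 20), Bag1 (34 and 26) and Hspa4l (11 and 12) were level.

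None of the 40 genes passed 2-fold in both pairs, 3 did in the Rela pair, 8 in the Kindlin-2 pair and 29 in neither. The overlap was not counted over all promoters measured in both pairs, so its absence here is not a result about these genes. Rad23b held 111 and 58 in the Rela pair and 57 and 26 in the Kindlin-2 pair. With chromosomes centred it was the 1 gene past 2-fold in both, at log2 ratios of -1.10 and -1.27. Ero1a was lower in value in both (154 and 88, then 19 and 9). Atf6 was weak in both and went opposite ways in value (16 and 9, then 3 and 9). Both of its intervals held 1 (0.221 to 1.22, then 0.684 to 31.4), so opposite changes are not shown. Hspbp1 and Rrbp1, both higher without Rela, held 12 and 17 and 38 and 26 in the Kindlin-2 pair, and Hsp90aa1 held 18 and 18. The pairs share no library, and log2 ratios were weakly related across the 40 genes (Pearson r = 0.22, Spearman rho = 0.39, a description without a test). No value over all promoters stands beside these. Control signal went together more closely (r = 0.645, rho = 0.615), with Stt3a, Edem1 and Derl1 strong in both tables.

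**Figure D5:**
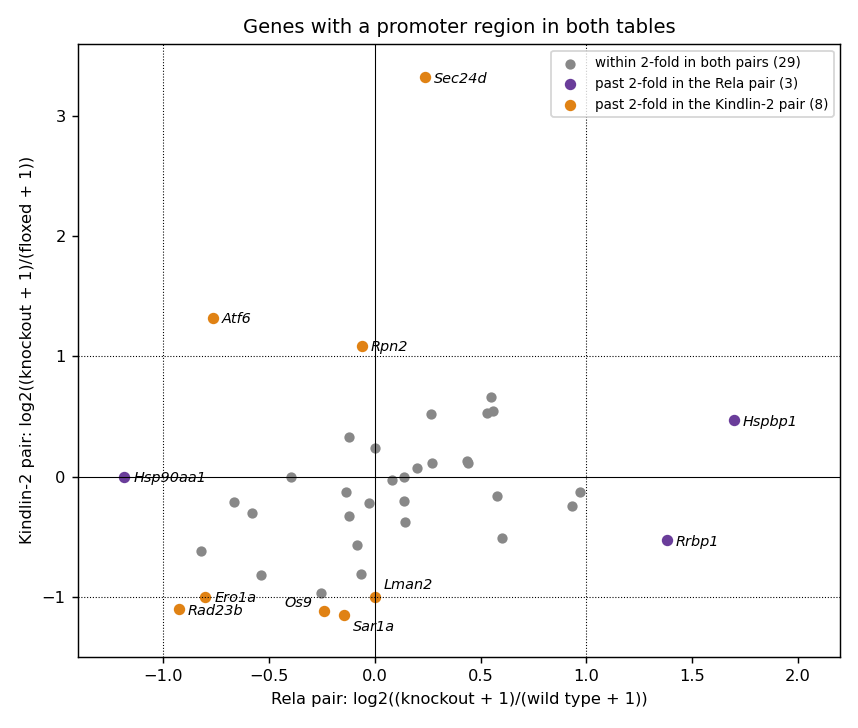
Log2 ratio of each of the 40 genes measured in both tables, in the Rela pair (x axis) and the Kindlin-2 pair (y axis), at the promoter region nearest the start. Dotted lines mark 2-fold. No point lies past 2-fold on both axes, and 29 lie within it on both, although Rad23b lies past it on both once chromosomes are centred.

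The 18 pathway genes that the rule left out, most of them ubiquitin enzymes and kinases, had 2 promoters higher and 2 lower in the Rela pair and a median log2 ratio of 0.14. These shares, 11.1% each way, were near the 10.8% and 11.4% of all promoter regions of genes with a KEGG pathway. The ubiquitin ligase genes Park2 (48 and 163) and Stub1, a chaperone-linked ligase (145 and 49), lay at the ends, with Ube2d1 (14 and 39) also higher and Cul1 (92 and 44) also lower. With chromosomes centred both lower calls ended, Stub1 going from -1.55 to -0.98 and Cul1 from -1.05 to -0.88, while Park2 went from 1.74 to 2.31. Ddit3, which encodes CHOP, the death-linked factor of the PERK branch, held 120 and 86, and the ligase gene Syvn1 26 and 40. In the Kindlin-2 pair 6 of these genes were measured and Ube2d2 was higher (5 and 11, interval 0.599 to 8.70), with a log2 ratio of 0.65 with chromosomes centred. Among Kindlin-2 promoter regions of genes with a KEGG pathway 7.42% were higher and 11.7% lower.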

How the data were processed

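Per the labels, the authors deposited 1 table per knockout with 1 normalized score per genotype and region, background-corrected and scaled by the DESeq method within its table, called signal here. Per the submitters' processing notes, which give no roles, the build was mm10 and the tools included MACS2, DESeq2, STAR 2.4.2a and Picard 1.136. How Tn5 cuts were shifted, duplicates removed and 2 replicates combined into 1 column is not given in the sources used here. Distances to gene starts, and the fraction of a region inside a gene body, are those in the deposited tables, and coordinates are used as they stand there.

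Regions with a mean of at least 1 entered the background, and ratios used a pseudocount of 1, which understates changes of weak regions. The planned limma test needed replicate columns and was replaced by the planned description. Counting intervals used the factor that turned counts into the whole values: 0.683 for Rela wild type (97.6% of the unevenness of the values explained), 0.949 for the Rela knockout (91.3%) and 1.36 for Kindlin-2 floxed (95.2%). No factor explained more than 23.3% for the Kindlin-2 knockout, which was given a factor of 1, so its intervals are the least certain. They cover counting error only and take the background correction as exact. Scripts ran in Python 3.11.15 with pandas 2.3.3 and scipy 1.17.1 and were tested on simulated data. Those data held counting error alone with factors set in advance. They leave out the background correction and the joining of replicates, and cannot check the factor given to the Kindlin-2 knockout.

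The genes and lists were chosen with earlier results of these data known. Named were all promoter regions past 2-fold and, whatever their values, 26 genes of the pathway, of which 19 had a promoter region; the others named fill in the roles and were chosen after their values were seen. Roles were assigned from general knowledge. Chromosome centring subtracts the median log2 ratio of a chromosome's regions. The values of 1 gene are not reported here, though the counts include it.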

Additional observations from a re-analysis of the deposited data

How the results depend on the processing

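In the Rela pair the counts of higher and lower promoters ranged from 4 to 5 and from 7 to 10 over all alternatives, and the median log2 ratio from -0.13 after quantile scaling to 0.02 with chromosomes centred. Filters on low values and a pseudocount of 0.5 changed no call there. Atf6b reached the threshold after quantile scaling (log2 ratio -1). In the Kindlin-2 pair the 3 higher promoters became 1 with a pseudocount of 5, with a mean signal of at least 10 and after quantile scaling, and 0 after loess centring. The 5 lower ones became 1 with a pseudocount of 5 and 3 with chromosomes centred. The Kindlin-2 median of -0.15 became -0.029 after quantile scaling and 0.0050 after loess centring, which also turned the Atf6 log2 ratio from 1.32 to -0.0078. Of 22 named regions past 2-fold in the 2 pairs, 9 stayed so in every alternative that kept them and 13 were within 2-fold in at least 1. All 9 belonged to the Rela pair, and no Kindlin-2 call held in every alternative. The cause of these shifts was not tested. With 1 value per genotype, leaving out a replicate could not be tried. No paired analysis was possible because each genotype has 1 column and no replicate numbers. Depth limits the Kindlin-2 pair most, where Lman2 and Ero1a, at the median floxed signal of 19, had counting intervals that reached below 1.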

Other observations

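Among 24 genes that the unfolded protein response or the amino acid response is known to raise and that lie outside the KEGG pathway, 15 had a promoter region in the Rela table, of which 1 was higher in the knockout and 2 lower. These shares, 6.67% and 13.3%, stand beside 13.0% and 13.1% among all promoter regions. The glutathione-degrading enzyme gene Chac1 had signals of 72 (wild type) and 11 (knockout) (interval of the fold 3.46 to 12.6), and a region of the stress-induced factor gene Atf3, 1528 bp from its start, held 69 and 10 (3.54 to 13.7). The cystine transporter gene Slc7a11 was higher (19 and 44, ratio 2.32, interval 1.40 to 3.79), but its log2 ratio of 1.17 became 0.64 with chromosomes centred, which leaves 0 higher and 2 lower. Lumenal genes of the same response were within 2-fold, with Manf at 160 and 101, Sdf2l1 at 133 and 115 and Hspa13 at 92 and 148, as were Asns (78 and 73), Trib3 (47 and 47) and Sesn2 (81 and 110). Of these genes, 7 had a promoter region in the Kindlin-2 table and all lay within 2-fold, Slc3a2 (7 and 14) and Sdf2l1 (11 and 20) having the highest ratios. Among all Kindlin-2 promoter regions 9.06% were higher and 10.6% lower, so 7 are too few to set these genes apart. Signal peptidase genes, which other KEGG entries hold, differed from each other in the Rela pair: Spcs3 held 97 and 298 (ratio 3.07, interval 2.51 to 3.77), Spcs1 64 and 33, Sec11a 20 and 11, and Sec11c 80 and 83. With chromosomes centred the log2 ratio of Spcs3 went from 1.61 to 0.998, just within 2-fold, and that of Sec11a from -0.81 to -1.005.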
